A study of Mus musculus with 18 samples.

Results

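Class IIa histone deacetylases (HDACs), the MEF2 transcription factors and their corepressor NCoR1 were examined in dorsal spinal tissue (L3–5) of mice with and without hindpaw inflammation. The set comprised 8 genes, chosen by name from the 34579 loci of each deposited table: *Hdac4*, *Hdac5*, *Hdac7*, *Hdac9*, *Mef2a*, *Mef2c*, *Mef2d* and *Ncor1*. All 8 were found in each of the 3 tables, each in 1 row. All were measured in C57BL/6 mice (C57BL/6N in the study's methods) aged 3 months, 18 mice in 6 groups of 3. Every mouse had received an intraspinal rAAV, with LacZ (the control vector), with wild-type HDAC4, called HDAC4 wt, or with HDAC4 3SA. The last is a mutant with 3 altered phosphorylation sites that stays in the nucleus. Intraplantar saline or complete Freund's adjuvant (CFA), an oil emulsion that causes lasting paw inflammation, was given 24 h before tissue collection. The rAAV was delivered at least 3 weeks earlier, the tissue held transduced and untransduced cells of all types, and the promoter of the vectors and the species of their HDAC4 sequence are not given in the sources used here.

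Class IIa HDACs bind MEF2 factors on DNA and have little deacetylase activity of their own. They repress MEF2 target genes largely by bringing in HDAC3, which is held in a complex with scaffold corepressors such as NCoR1. Calcium-dependent kinases phosphorylate serines in the N-terminal part of class IIa HDACs, 14-3-3 proteins bind the phosphorylated serines, and the HDAC leaves the nucleus, so MEF2 factors can activate transcription. In neurons this exchange links synaptic activity to gene expression. It acts on the place of the proteins in the cell, which mRNA levels do not measure.

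The serines on which nuclear export depends lie in a recurring pattern, a leucine 5 codons before the serine and a proline 2 codons after it, with an arginine or lysine 3 codons before the serine. The pattern occurs 4 times in the longest annotated coding sequence of *Hdac4* (1076 codons), 3 times in *Hdac5* (1121 codons), 4 times in *Hdac7* (953 codons) and 3 times in *Hdac9* (1067 codons). A match to the pattern does not show that its serine serves export. HDAC4 3SA alters 3 sites, so not all 4 matches of *Hdac4* are among them. The 4 stretches of *Hdac4* and the first one of each of the other genes are shown because the HDAC4 3SA vector changes sites of this kind. Which codons it changes is not given in the sources used here. They were read from GENCODE transcripts on GRCm38, all from minus-strand genes, 5′ to 3′, 24 bases each, with the serine codon in capitals.
*Hdac4*, codon 245, chr1:91991604-91996069, across an exon junction: cttaggaaaacagctTCTgaacct
*Hdac4*, codon 465, chr1:91982140-91982163: ctggggcgcacgcagTCAgcaccc
*Hdac4*, codon 507, chr1:91975679-91982037, across an exon junction: ctcagcaagataatcTCCaaacct
*Hdac4*, codon 629, chr1:91972761-91972784: ctgtctcgggcacagTCCtcccca
*Hdac5*, codon 269, chr11:102205621-102205802, across an exon junction: ctccgtaaaacggccTCGgaaccc
*Hdac7*, codon 156, chr15:97809516-97809936, across an exon junction: ttgcgtaaaacagtgTCTgaaccc
*Hdac9*, codon 223, chr12:34407887-34429510, across an exon junction: ttgagaaaaactgccTCAgagccc
The first stretch spans an exon junction in all 4 genes. It differs from that of *Hdac4* at 7 of 24 bases in *Hdac5*, at 7 in *Hdac7* and at 8 in *Hdac9*. The stretches were chosen by the pattern, so sharing it is not a result, and they were paired by order, not by alignment.

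RefSeq promoter windows (GRCm38.p6, from 250 bases before to 50 after a transcript start) were found for all 8 genes, 15 windows in all. They were searched on both strands for the letters CTANNNNTAG and CTANNNNTAA, where N is any base. This is looser than the A/T-rich sites that MEF2 factors bind. *Mef2a*, *Hdac5* and *Hdac9* each had 1 window with a match, and the other 5 genes had none. Another window of *Hdac9* held no match. Of all 32851 mouse windows, 3.69% held the first form, 7.98% the second and 11.2% either. The 3 matching windows of 15 are too few to be told apart from these shares and are not a result about the set. The stretches of 30 bases around the matches are shown because they lie at genes that encode MEF2 itself or its partners. They are given 5′ to 3′ on the gene's strand (minus for all 3), with matched letters in capitals.
*Mef2a*, chr7:67372841-67372870: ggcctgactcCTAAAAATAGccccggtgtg
*Hdac5*, chr11:102230173-102230202: gggtctgagcCTATTTTTAGctcggggtcg
*Hdac9*, chr12:34528905-34528934: aaatggaTTATCACTAGCTTTAGccaactt
In *Hdac9* both forms matched and overlap, 16 bases in all, with the second form on the opposite strand. Both *Hdac9* matches hold G or C among their middle bases, while those of *Mef2a* and *Hdac5* hold only A or T there. A match is a description of letters and says nothing of binding.

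Levels are in FPKM, which counts fragments relative to exon length and to the size of the library. A table holds 1 saline and 1 CFA value per gene, each a single deposited estimate over the 3 mice of a group. The tables hold no value per mouse, read count or library depth, so no SD, interval or test could be computed here. The authors' own test of CFA against saline is deposited beside the values and was not used. Ratios are on the log2 scale after adding 0.1 FPKM to each value. A ratio beyond 0.5 in either direction, about 1.41-fold, is called past the fold, and is set beside the share of all loci with a mean of at least 1 FPKM that pass it in the same direction. Each vector was normalized on its own, so levels set across vectors are a description only. The annotated gene lay almost wholly within each locus, with 92.0% to 100% of its exon bases included. Only the locus of *Ncor1* spans another protein-coding gene on its own strand, *Zswim7*. Genes on the opposite strand overlap the loci of *Hdac4* (*Gm37048* and *Gm26720*), *Hdac7* (*Slc48a1*), *Hdac9* (*Gm24429*), *Mef2a* (*Lysmd4*), *Mef2d* (*1700113A16Rik*) and *Ncor1* (*Ttc19*, *Gm12276* and *Pigl*), and although the libraries were strand-specific, whether the strand of a read entered its count is not given in the sources used here.

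*Hdac5* was the most abundant class IIa HDAC mRNA in all 6 groups. It stood at 34.1 FPKM in LacZ saline, 33.6 in LacZ CFA, 28.2 in HDAC4 wt saline, 28.2 in HDAC4 wt CFA, 26.0 in HDAC4 3SA saline and 25.5 in HDAC4 3SA CFA. It accounted for 52.5% to 62.5% of the summed FPKM of the 4 class IIa genes, and both LacZ values were above the 4 values from HDAC4 vectors. The ratio of *Hdac5* to *Hdac4* was 4.60 in LacZ saline and 4.35 in LacZ CFA, against 2.60 to 2.94 in the other 4 groups.

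*Hdac4*, the gene that encodes HDAC4 in the mouse, came second in every group. Its share of the class IIa sum was 13.6% in LacZ saline, 14.3% in LacZ CFA, 18.9% in HDAC4 wt saline, 20.3% in HDAC4 wt CFA, 18.3% in HDAC4 3SA saline and 18.6% in HDAC4 3SA CFA. The share was thus lowest in both LacZ groups and differed by at most 1.37 percentage points between saline and CFA of a vector. How much of the *Hdac4* signal came from vector transcripts was not tested, since FPKM per locus does not separate them from the endogenous gene.

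*Hdac7*, which is best known from endothelial cells and developing thymocytes, and *Hdac9*, which also gives rise to a short form without the catalytic domain, were the least abundant. *Hdac7* had 5.84 FPKM in LacZ saline, 6.17 in LacZ CFA, 8.60 in HDAC4 wt saline, 8.38 in HDAC4 wt CFA, 6.95 in HDAC4 3SA saline and 7.87 in HDAC4 3SA CFA. *Hdac9* had 7.17, 6.41, 6.75, 6.06, 6.49 and 5.13 FPKM in the same order of groups. *Hdac9* stood above *Hdac7* in both LacZ groups and below it in all 4 groups with an HDAC4 vector. Within every vector the CFA value of *Hdac9* was below the saline value. The sum over the 4 genes ranged from 47.3 to 54.5 FPKM. Whether neighbours in this order differ beyond the spread between mice cannot be told from group values.

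The MEF2 factors bind A/T-rich sites through a shared MADS domain. *Mef2a* and *Mef2d* were abundant and *Mef2c* was the least abundant in every group. *Mef2a* had 28.9 FPKM in LacZ saline, 31.2 in LacZ CFA, 34.1 in HDAC4 wt saline, 35.1 in HDAC4 wt CFA, 31.6 in HDAC4 3SA saline and 37.0 in HDAC4 3SA CFA. *Mef2d* had 26.9, 28.2, 27.1, 26.2, 27.4 and 25.8 FPKM in that order. Its highest value was 1.09 times its lowest, the narrowest range of the 8 genes.

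*Mef2c*, a factor of neurons and also of microglia, muscle and endothelium, had the widest range. It stood at 5.01 FPKM in LacZ saline, 4.96 in LacZ CFA, 9.06 in HDAC4 wt saline, 8.78 in HDAC4 wt CFA, 7.99 in HDAC4 3SA saline and 9.30 in HDAC4 3SA CFA. The LacZ values lay close together and below all others. *Mef2a* was 5.77 and 6.29 times *Mef2c* in the LacZ groups and 3.77 to 4.00 times *Mef2c* in the other 4. *Mef2c* made up 7.71% to 8.23% of the summed MEF2 FPKM in LacZ groups and 11.9% to 12.9% in the groups with an HDAC4 vector.

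*Ncor1*, the scaffold that holds and activates HDAC3, had 23.7 FPKM in LacZ saline, 22.2 in LacZ CFA, 25.7 in HDAC4 wt saline, 24.6 in HDAC4 wt CFA, 25.1 in HDAC4 3SA saline and 23.6 in HDAC4 3SA CFA. Its CFA value was below its saline value in all 3 vectors, and its LacZ values overlapped with the rest.

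**Figure D1:**
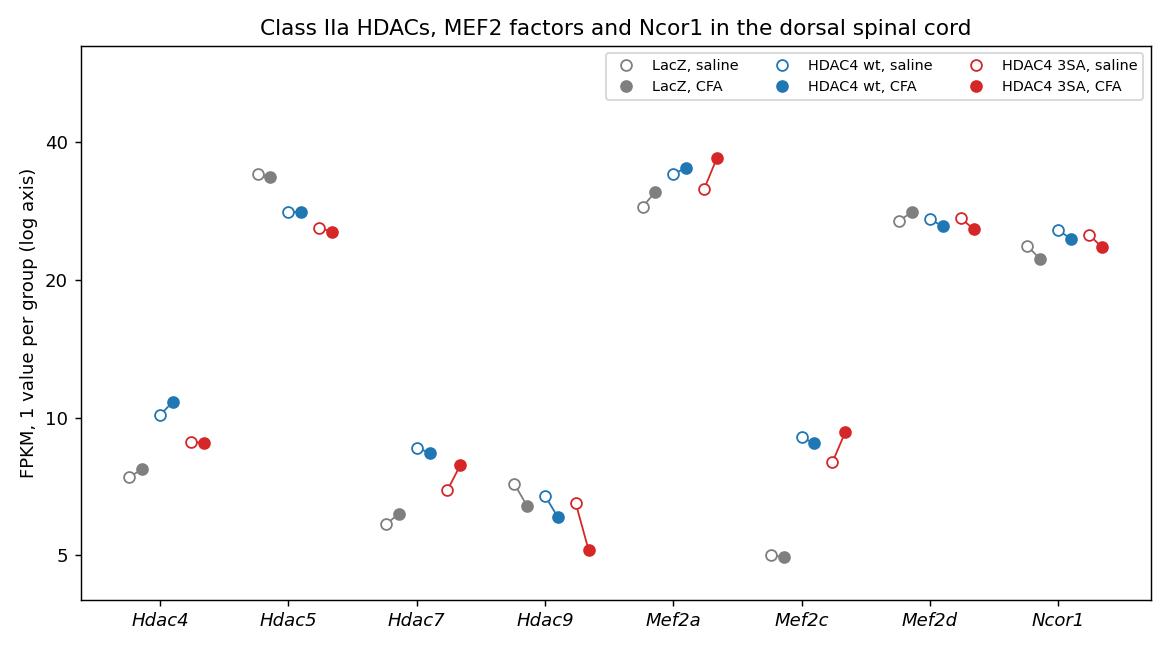
FPKM of the 8 genes on a log axis, 1 point per group (open, saline; filled, CFA; grey, LacZ; blue, HDAC4 wt; red, HDAC4 3SA), with a line joining saline and CFA of a vector and no error bars because each point is the authors' single value per group. *Mef2c* is near 5 FPKM in both LacZ groups and between 7.99 and 9.30 FPKM in the other 4, while *Mef2d* stays between 25.8 and 28.2 FPKM.

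The first question was whether inflammation changed the mRNA of these regulators, since the study followed the protein in and out of the nucleus. The study also reported no change after inflammation in the total amount of HDAC4, or of other HDACs it measured, in the dorsal horn. None of the 8 genes passed the fold between CFA and saline in any vector. In LacZ mice 0 of 8 were higher by the fold and 0 were lower, beside 3.93% and 3.23% of 17416 loci. In HDAC4 wt mice the count was again 0 in both directions, beside 9.13% and 4.94% of 18083 loci, and in HDAC4 3SA mice 0, beside 10.1% and 4.55% of 18034 loci. With shares of this size, a count of 0 among 8 genes lies near the background and is not a result about these genes. Because bulk tissue was measured, fewer cells of a type and less RNA per cell cannot be told apart in any of these ratios.

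In LacZ mice the log2 ratios ranged from -0.16 (*Hdac9*) to 0.11 (*Mef2a*), with a median of 0.022 beside 0.0028 over all loci. *Hdac4* had a ratio of 0.058, and 34.0% of loci had a higher one. Summed FPKM of 6 neutrophil markers was 11.0 in LacZ saline and 112 in LacZ CFA, and the sum of 6 skeletal muscle markers 18.7 and 37.8. Schwann cell markers summed to 1210 and 1742 and leptomeningeal fibroblast markers to 125 and 166 FPKM, with 4 of 5 and 2 of 5 genes above by the fold. The part of these cell types in the ratios was not tested.

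In HDAC4 wt mice the ratios ranged from -0.15 (*Hdac9*) to 0.095 (*Hdac4*), with a median of -0.041 beside 0.011 over all loci. The median size without regard to sign was 0.046 for the 8 genes and 0.13 for all loci. All loci include those down to a mean of 1 FPKM, while the 8 genes had at least 4.96 FPKM. The share of loci past the fold in either direction was 14.1% from 1 FPKM and 9.25% from 5 FPKM. In these mice dorsal horn neuron markers summed to 216 FPKM after saline and 187 after CFA, astrocyte markers to 1299 and 1569 and neutrophil markers to 41.3 and 28.4, and their part in the ratios was not tested.

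In HDAC4 3SA mice the range was wider, from -0.33 for *Hdac9* to 0.22 for *Mef2a*. *Hdac9* had 5.13 FPKM after CFA against 6.49 after saline, and 8.98% of loci had a lower ratio. *Mef2c* followed *Mef2a* with a ratio of 0.22 and *Hdac7* with 0.18. The median size of the 8 ratios was 0.13, beside 0.15 over all loci, again down to a mean of 1 FPKM. In the same mice the summed FPKM of 6 microglial markers was 310 after saline and 510 after CFA, that of 5 endothelial markers 69.8 and 81.8, and that of 6 neuronal markers 1702 and 1514. The neuronal list was split, with 3 of 6 genes above their saline value and 3 below, among them *Snap25* at 861 and 646 FPKM. Dorsal horn neuron markers summed to 211 and 165 FPKM, with all 6 genes below their saline value, Schwann cell markers to 1574 and 1069, astrocyte markers to 1294 and 1617 and neutrophil markers to 61.6 and 38.3. Of the 5 astrocyte markers 3 were above their saline value, most of the difference coming from *Gfap* (805 and 1094 FPKM), and 2 below. Their part in the ratios of *Hdac9*, *Mef2c*, *Mef2a* and *Hdac7* was not tested.

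*Hdac9* and *Ncor1* were below their saline value after CFA in all 3 vectors, and *Mef2a* above it in all 3, beside 19.9% of 16327 loci below and 22.5% above in all 3. Counts of 2 and 1 of 8 genes are near these shares and are not a result about the set. Differences between the CFA ratios of a pair of vectors were at most 0.11 between HDAC4 wt and LacZ (*Hdac7*), 0.23 between HDAC4 3SA and LacZ (*Mef2c*) and 0.26 between HDAC4 3SA and HDAC4 wt (*Mef2c*). No test of these differences was possible without values per mouse.

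**Figure D2:**
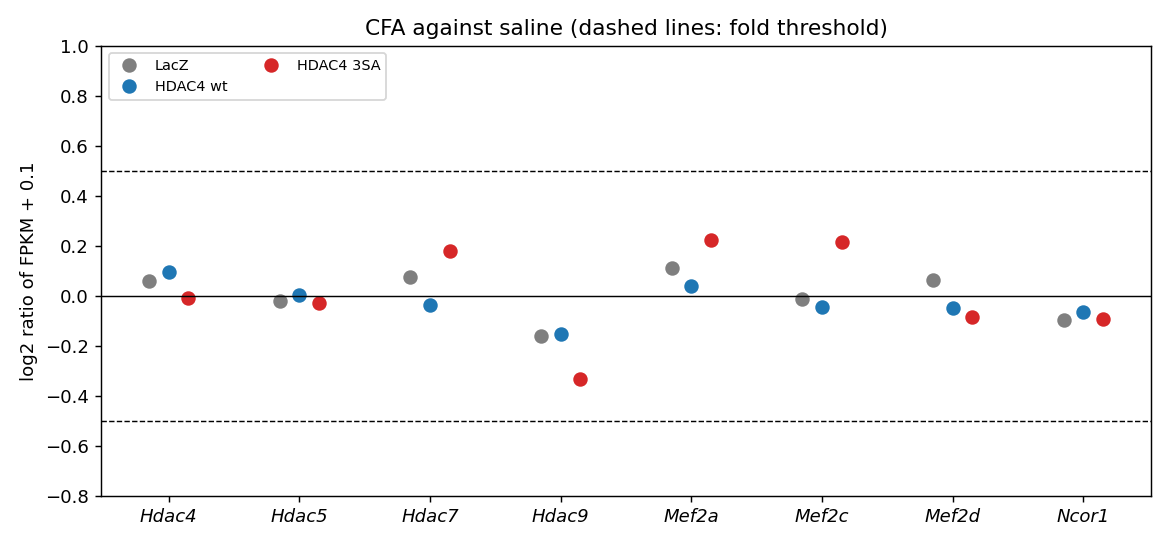
Log2 ratio of CFA over saline (0.1 FPKM added) for the 8 genes in LacZ (grey), HDAC4 wt (blue) and HDAC4 3SA (red) mice, with dashed lines at the fold threshold of 0.5 and -0.5. All 24 points lie inside the dashed lines, and the lowest is *Hdac9* in HDAC4 3SA mice at -0.33.

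The second set of comparisons placed the vectors side by side. The values of HDAC4 wt and HDAC4 3SA are set against the same LacZ groups, so these comparisons share them and are not independent. *Mef2c* was past the fold against LacZ with both HDAC4 vectors and after both treatments. Its level was 1.81 times the LacZ level in HDAC4 wt saline, 1.77 times in HDAC4 wt CFA, 1.60 times in HDAC4 3SA saline and 1.88 times in HDAC4 3SA CFA. The log2 ratios were 0.84, 0.81, 0.66 and 0.89, and 8.16%, 9.27%, 8.57% and 9.23% of loci had a higher one.

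*Hdac7* was past the fold only in HDAC4 wt saline against LacZ saline, at 0.55. After CFA its ratio was 0.44, and with HDAC4 3SA it was 0.25 after saline and 0.35 after CFA. These 4 ratios all lie above 0 but straddle the threshold.

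*Hdac4* itself did not pass the fold in any of them. Its level in HDAC4 wt was 1.37 times LacZ after saline and 1.40 times after CFA, log2 ratios of 0.45 and 0.48. In HDAC4 3SA it was 1.20 and 1.14 times LacZ, log2 ratios of 0.25 and 0.19, and 22.7% and 33.2% of loci had a higher one. The HDAC4 wt ratios were just inside the threshold and the HDAC4 3SA ratios further inside. These positions depend on the scaling. With ratios centred on the median of 6 neuronal markers, an alternative chosen after seeing the data, *Hdac4* was at 0.95 and 0.94 in HDAC4 wt and at 0.55 and 0.58 in HDAC4 3SA, past the fold in all 4 comparisons, and so was *Hdac7*, at 1.05, 0.89, 0.55 and 0.74.

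*Hdac5* was the gene lowest against LacZ, with log2 ratios of -0.27 and -0.25 in HDAC4 wt and -0.39 and -0.40 in HDAC4 3SA for saline and CFA. *Hdac9* ranged from -0.32 to -0.080. *Mef2a* ranged from 0.13 to 0.25, *Ncor1* from 0.083 to 0.15 and *Mef2d* from -0.13 to 0.023. *Mef2d* and *Ncor1* thus stayed within 0.15 of the LacZ level in all 4 comparisons. The directions of *Hdac5* and *Hdac9* also depend on the scaling. Centred on the neuronal markers, *Hdac5* was at 0.23 and 0.21 in HDAC4 wt and at -0.089 and -0.0018 in HDAC4 3SA, *Hdac9* was above 0 in all 4 comparisons, at 0.078 to 0.41, and *Mef2d* and *Ncor1* were at 0.27 to 0.61. *Mef2a* was then at 0.74, 0.63, 0.43 and 0.64 and passed the fold in 3 of the 4, *Ncor1* in both HDAC4 wt comparisons and *Mef2d* in HDAC4 wt saline. With this centring 54.7%, 47.8%, 27.3% and 40.7% of all loci were above by the fold in the order HDAC4 wt saline and CFA, then HDAC4 3SA saline and CFA, so the 6, 5, 3 and 4 of 8 genes above are not a result about the set.

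Counted over the 8 genes, 2 were higher and 0 lower by the fold in HDAC4 wt against LacZ after saline, beside 14.6% and 10.8% of 17716 loci. After CFA the counts were 1 and 0, beside 14.8% and 7.21% of 17819 loci. For HDAC4 3SA against LacZ they were 1 and 0 after saline, beside 11.6% and 9.48% of 17596 loci, and 1 and 0 after CFA, beside 16.5% and 11.7% of 17780 loci. A share of 1 or 2 in 8 genes is near these backgrounds and is not a result about the set. All 4 values from HDAC4 vectors were above both LacZ values for 4 genes (*Hdac4*, *Hdac7*, *Mef2a* and *Mef2c*) and below both for 1 (*Hdac5*), beside 31.7% and 22.4% of 17851 loci.

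Between the HDAC4 vectors no gene passed the fold. For HDAC4 3SA against HDAC4 wt, 0 of 8 were higher and 0 lower after saline, beside 3.98% and 5.68% of 17787 loci, and 0 and 0 after CFA, beside 5.6% and 8.21% of 17993 loci. *Hdac4* was lower in HDAC4 3SA by 0.19 after saline and 0.30 after CFA on the log2 scale. *Hdac7* had the lowest ratio after saline at -0.30, and *Mef2c* the highest after CFA at 0.081. Centred on the neuronal markers, *Hdac4* was lower by 0.35 and 0.39, *Mef2c* after CFA was at -0.013 and again no gene passed the fold.

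**Figure D3:**
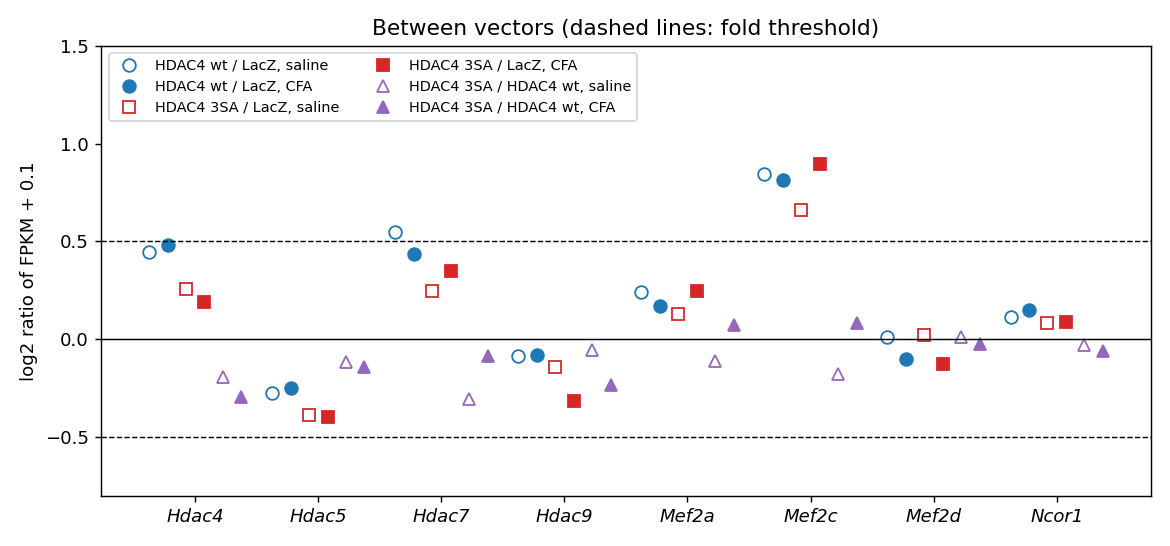
Log2 ratios between vectors for the 8 genes (0.1 FPKM added; blue circles, HDAC4 wt over LacZ; red squares, HDAC4 3SA over LacZ; purple triangles, HDAC4 3SA over HDAC4 wt; open, saline; filled, CFA), with dashed lines at 0.5 and -0.5. Only *Mef2c* (0.66 to 0.89) and *Hdac7* in HDAC4 wt saline (0.55) lie beyond a dashed line, and the levels come from separately normalized tables.

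Markers of several cell types differed between the LacZ groups and the groups with an HDAC4 vector, in the same comparisons. Each of the 6 neuronal and 6 dorsal horn markers was above 0 in every group. The summed FPKM of the neuronal markers was 2298 to 2339 in LacZ groups and 1508 to 1702 in the other 4. For the dorsal horn markers it was 250 to 255 and 165 to 216. The locus of one of them, *Tac1*, held only 45.5% of its annotated exon bases, and without it the sums were 210 to 215 and 138 to 177. In each of these lists 4 of 6 genes were below both LacZ values in all 4 HDAC4 groups, beside 22.4% of 17851 loci.

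Sums of microglial, astrocyte, endothelial and B and plasma cell markers were higher in those 4 groups. Microglial markers summed to 113 to 116 FPKM in LacZ groups and 310 to 510 in the others, and all 6 of them were above both LacZ values in every such group. For 5 astrocyte markers the sums were 843 to 853 and 1294 to 1617, with 3 genes above, among them *Gfap*, and 2 below. The 5 endothelial markers summed to 58.7 to 58.9 and 69.8 to 81.8, all 5 above. B and plasma cell markers summed to 1.12 to 2.89 and 192 to 319, all 5 above, most of it from *Jchain*. By the same rule 31.7% of 17851 loci were above both LacZ values and 22.4% below. The astrocyte counts of 3 and 2 of 5 are too small to be told apart from these shares. Among these lists stand cell types in which *Mef2c* and *Hdac7* are known to act, and their part in the ratios of both genes was not tested.

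Sums of 4 further lists overlapped between the LacZ groups and the rest. Leptomeningeal fibroblast markers summed to 125 to 166 and 155 to 172 FPKM. Schwann cell markers, of nerve roots, summed to 1210 to 1742 and 1069 to 1574, skeletal muscle markers to 18.7 to 37.8 and 2.67 to 57.5, and neutrophil markers to 11.0 to 112 and 28.4 to 61.6. The sums of 4 oligodendrocyte markers did not overlap, at 582 to 584 and 611 to 748 FPKM.

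**Figure D4:**
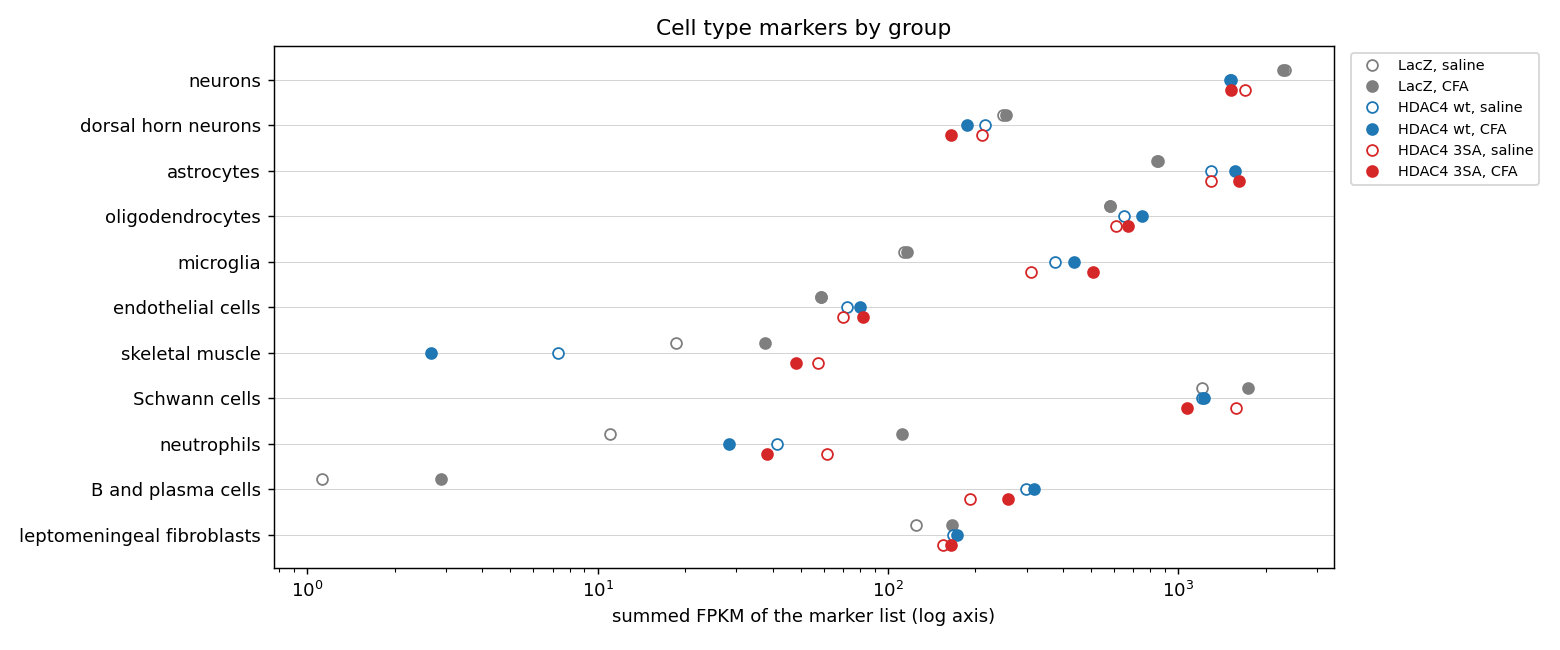
Summed FPKM of 11 lists of cell type markers on a log axis, 1 point per group in the same colours and fills as the plot of the 8 genes, each the sum of single values per group. Microglial markers lie at 113 to 116 FPKM in LacZ groups and 310 to 510 in the other 4, and neuronal markers at 2298 to 2339 and 1508 to 1702.

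The rest of the pathway was read from lists of genes, each counted against the same threshold over genes that reached a mean of 1 FPKM in the comparison. Over all loci, 3.23% to 10.1% passed the fold in a given direction after CFA, 7.21% to 16.5% against LacZ and 3.98% to 8.21% between the HDAC4 vectors, as given above for each comparison. A count of 0 in lists of 5 to 18 genes is set beside these shares and by itself is not a result about a list. NCoR1 works with HDAC3, TBL1X, TBLR1 (*Tbl1xr1*) and GPS2. Of these 5 genes, *Ncor1* included, 0 passed the fold between CFA and saline in any vector, beside the shares above. The ratios ranged from -0.10 (*Tbl1xr1*) to 0.10 (*Gps2*) in LacZ, from -0.090 (*Tbl1x*) to 0.032 (*Tbl1xr1*) in HDAC4 wt and from -0.11 (*Tbl1x*) to 0.14 (*Gps2*) in HDAC4 3SA. *Hdac3* was even across groups, at 30.4 to 33.4 FPKM, and *Gps2* stood at 12.8 and 13.8 FPKM in LacZ groups and 16.3 to 18.1 in the others. None of the 5 passed the fold between vectors either.

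Kinases of the CaMK, PKD, SIK and MARK families phosphorylate class IIa HDACs or act upstream of those that do. Of 18 such genes, 0 passed the fold after CFA with any vector, beside 3.93%, 9.13% and 10.1% of all loci above and 3.23%, 4.94% and 4.55% below with LacZ, HDAC4 wt and HDAC4 3SA. Medians were 0.020 with LacZ, 0.0054 with HDAC4 wt and -0.037 with HDAC4 3SA, beside 0.0028, 0.011 and 0.0093 over all loci. The lowest ratios were those of *Camk4* with LacZ at -0.15, and of *Camk2a* with HDAC4 wt and HDAC4 3SA at -0.32 and -0.44. The highest were those of *Camk1d* at 0.24, *Sik1* at 0.36 and *Prkd2* at 0.37 in the same order of vectors. *Camk2a*, a kinase subunit of excitatory neurons, had 55.3 FPKM after saline and 63.0 after CFA with LacZ, and 73.4 and 54.1 with HDAC4 3SA.

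Against LacZ, 2 of the 18 kinases were above and 1 below by the fold in HDAC4 wt saline, 3 and 1 in HDAC4 wt CFA, 1 and 0 in HDAC4 3SA saline and 3 and 2 in HDAC4 3SA CFA. In the same order 14.6%, 14.8%, 11.6% and 16.5% of all loci were above and 10.8%, 7.21%, 9.48% and 11.7% below, so these counts are near the background and are not a result about kinases. In HDAC4 wt saline they were *Prkd2* (0.70) and *Camk1d* (0.51) above and *Camk4* (-0.51) below, and in HDAC4 wt CFA *Prkd2* (0.79), *Prkd3* (0.61) and *Sik1* (0.54) above and *Camkk1* (-0.55) below. In HDAC4 3SA saline only *Sik1* (0.61) passed. In HDAC4 3SA CFA *Prkd2* (0.78), *Sik1* (0.66) and *Prkd3* (0.58) were above and *Camk1g* (-0.53) and *Camkk1* (-0.52) below. None of the 18 passed the fold between HDAC4 3SA and HDAC4 wt.

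The 14-3-3 proteins hold phosphorylated class IIa HDACs in the cytosol, exportin 1 (*Xpo1*) carries them out and protein phosphatase 2A can reverse the phosphorylation. Of 12 such genes, 0 passed the fold in any of the 9 comparisons, beside 3.23% to 16.5% of all loci in a given direction. After CFA the extremes were -0.18 (*Xpo1*) and 0.053 (*Ywhag*) in LacZ, -0.13 (*Ywhaz*) and -0.0038 (*Ppp2cb*) in HDAC4 wt, and -0.17 (*Ywhaz*) and 0.078 (*Ppp2r2a*) in HDAC4 3SA. *Ywhag*, the most abundant, had 445 and 461 FPKM in LacZ groups and 335 to 373 in the others.

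Among 10 other partners of class IIa HDACs, from CtBP corepressors to heterochromatin protein 1 and BCL6, only *Runx2* passed the fold after CFA. This bone transcription factor was near the minimum level, at 1.88 and 0.92 FPKM in LacZ saline and CFA and at 0.67 and 1.84 in HDAC4 wt, so its ratios were -0.96 and 1.33. In HDAC4 3SA it was under the minimum, at 0.20 and 0.51 FPKM. *Runx2* was also the only one of this list past the fold between vectors. In each of these comparisons it reached the mean of 1 FPKM only through the group where it was higher, so its passing follows in part from the minimum and its ratios from the 0.1 FPKM added. Apart from it, the extremes after CFA were *Srf* at 0.19 and *Cbx5* at -0.10 in LacZ, *Bcl6* at 0.28 and *Ankra2* at -0.16 in HDAC4 wt, and *Bcl6* at 0.36 and *Ankra2* at -0.13 in HDAC4 3SA.

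MEF2 factors recruit the acetyltransferases p300 and CBP, are phosphorylated by p38 and ERK5 (*Mapk7*) and are dephosphorylated by calcineurin. Of 9 genes read from this list, 0 passed the fold in any comparison, beside the same 3.23% to 16.5% of loci in a given direction. After CFA they ranged from -0.11 (*Ppp3r1*) to 0.12 (*Mapk7*) in LacZ, from -0.19 (*Ppp3ca*) to 0.16 (*Kat2b*) in HDAC4 wt and from -0.36 (*Ppp3ca*) to 0.26 (*Mapk7*) in HDAC4 3SA. *Ppp3ca*, a calcineurin catalytic subunit of neurons, went from 153 to 119 FPKM in the last of these, where dorsal horn neuron markers had a median ratio of -0.34. Their part in its ratio was not tested. *Mef2b*, on the same list, was not analysed here because its locus identifier has different places in different tables. In the order LacZ, HDAC4 wt and HDAC4 3SA, the medians of the CFA ratios were -0.071, -0.030 and -0.074 for the corepressor complex, -0.033, -0.051 and -0.094 for the 14-3-3 and export genes, 0.0081, 0.026 and -0.026 for the other partners and 0.015, -0.023 and -0.0096 for the coactivators and regulators of MEF2. All were within 0.1 of 0.

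Of 10 genes known as MEF2 targets in neurons, 0 passed the fold after CFA with LacZ, 2 with HDAC4 wt and 1 with HDAC4 3SA, all above. Over all loci 3.93%, 9.13% and 10.1% were above by the fold, so counts of this size are near the background. The list's medians were 0.10, 0.17 and 0.16, beside 0.0028, 0.011 and 0.0093 over all loci. *Sgk1*, a kinase induced by glucocorticoids and stress, had 15.7 FPKM after saline and 21.2 after CFA with LacZ, 28.6 and 47.6 with HDAC4 wt, and 32.1 and 45.9 with HDAC4 3SA, log2 ratios of 0.43, 0.74 and 0.51. *Klf2*, a transcription factor with high levels in endothelium, had ratios of 0.46, 0.56 and 0.42. Both thus leaned the same way in all 3 vectors and lay on either side of the threshold. The lowest ratios were -0.052 and -0.058 for *Kcna1* with LacZ and HDAC4 wt and -0.29 for *Nr4a1* with HDAC4 3SA. *Jun*, on the same list, was not analysed here because its locus has places that do not overlap in different tables.

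Against LacZ, *Sgk1* and the activity-regulated synaptic gene *Arc* were past the fold with both HDAC4 vectors and after both treatments. *Sgk1* had ratios of 0.86, 1.17, 1.03 and 1.11 and *Arc* of 0.72, 0.69, 0.52 and 0.69 for HDAC4 wt saline, HDAC4 wt CFA, HDAC4 3SA saline and HDAC4 3SA CFA. *Klf6*, a zinc-finger factor, passed with HDAC4 wt only, at 0.54 and 0.52, and had 0.37 and 0.47 with HDAC4 3SA. The counts above the fold were thus 3, 3, 2 and 2 of 10 in that order, beside 14.6%, 14.8%, 11.6% and 16.5% of all loci. None of the 10 passed between HDAC4 3SA and HDAC4 wt. The microglial, astrocyte and plasma cell sums given above moved in the same comparisons, and their part in these ratios was not tested.

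**Figure D5:**
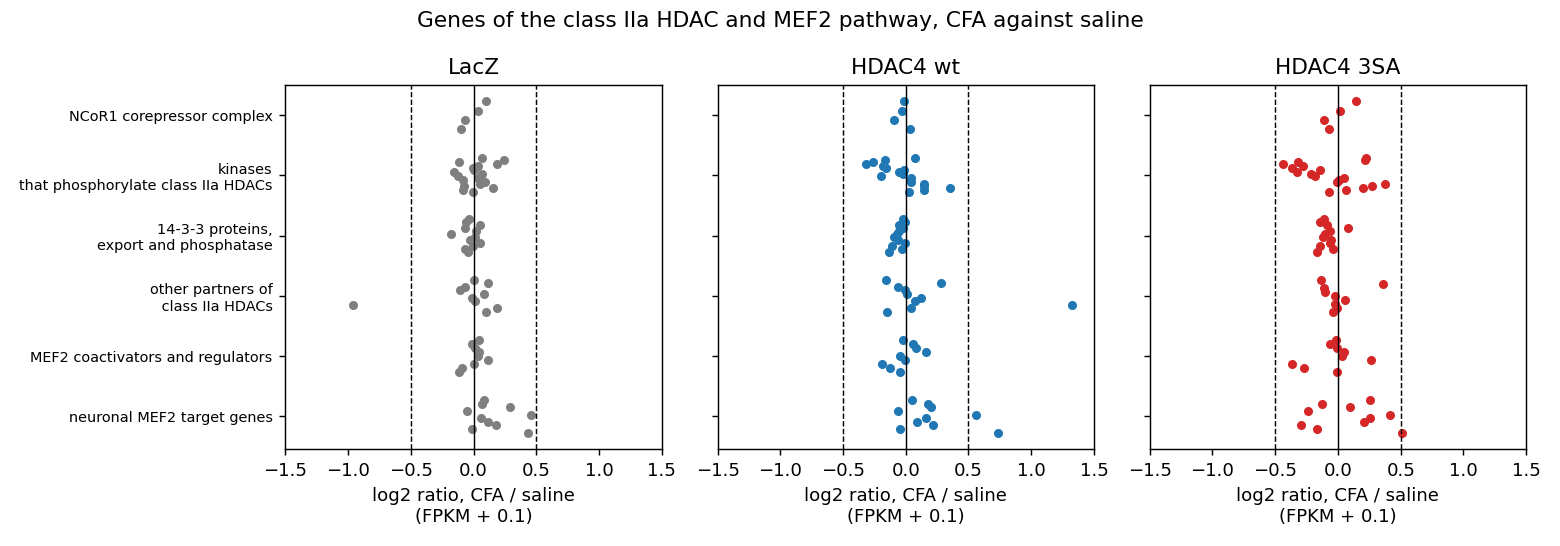
Log2 ratio of CFA over saline (0.1 FPKM added) for single genes of 6 lists around class IIa HDACs and MEF2, in LacZ (grey), HDAC4 wt (blue) and HDAC4 3SA (red) mice, with dashed lines at 0.5 and -0.5; the 8 genes themselves and genes under 1 FPKM are left out. Points beyond a dashed line are *Runx2* in LacZ (-0.96) and HDAC4 wt (1.33), *Sgk1* in HDAC4 wt (0.74) and HDAC4 3SA (0.51), and *Klf2* in HDAC4 wt (0.56).

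Likeness in pattern was measured as Pearson's r over the 6 log2 group values, across 10348 single-gene loci with a mean of at least 5 FPKM. The 3 loci most like *Hdac4* were *Dennd2a*, *Mars* and *Slc7a6os*, each with an r of 0.995 to 0.998. Those most like *Mef2c* were *F830016B08Rik*, *Tmem5* and *Gm26778*, each with an r of at least 0.999, the first of which was listed at 0 in both LacZ groups. That locus reached the minimum only through the other groups, and its r rests on the 0.1 FPKM added to both values of 0. The 6 points share their tables and normalization, so such values are easily reached. An r above 0.9 was found for 451 loci (4.36%) with *Hdac4* and for 2007 loci (19.4%) with *Mef2c*.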

How the data were processed

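The authors aligned single-end reads to GRCm38 (TopHat 2.0.14, Bowtie 2.2.9, Ensembl release 85) and ran Cuffdiff 2.0.0 once per vector. The deposited FPKM values were used as the authors' single value per group, estimated over 3 mice. Columns of the authors' own comparisons (log2 fold change, test statistic, p-value, q-value and significance) were not used. Loci were matched between tables by identifier, and 386 with places that do not overlap were left out between vectors. A list gene at such a locus was left out of every comparison, also of those within a vector. Rows were taken by gene name, and the row with the highest mean was used where a list gene had several. The 8 genes, the lists, the threshold and the alternatives were chosen with earlier results of these data known. Genes named outside the 8 are the highest and lowest of each list after CFA, those past the fold, and the 3 loci most alike in pattern. Further names (*Hdac3*, *Gps2* and *Ywhag*, for their level, and *Gfap*, *Jchain*, *Snap25* and *Tac1* among markers) were added after their values were seen. Some genes of the lists are not reported here and were left out of every count, sum and median of a list. The count of values past a threshold was tested on simulated data. Exons, coding sequences and coordinates came from GENCODE M21, and promoters from RefSeq. Values were computed with pandas 2.3.3. The methods state a minimum number of reads per sample, but the tables hold no counts, so the depth behind each value, and with it the precision, is unknown.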

Additional observations from a re-analysis of the deposited data

Results flagged for a closer look

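None of the 8 genes had CFA ratios of opposite sign in a pair of vectors that differed by more than 0.5 on the log2 scale. Among all 71 genes read from the pathway lists, the 8 included, 3 did, in 4 pairs of vectors, and none of these differences could be tested. The share of all loci that meet this rule was not computed, so neither count is a result about these genes. *Camk2a* had a ratio of 0.19 with LacZ against -0.32 with HDAC4 wt, a difference of 0.51, and -0.44 with HDAC4 3SA, a difference of 0.63. The 6 dorsal horn neuron markers had median ratios of 0.046, -0.21 and -0.34 in the same vectors, and their part in the *Camk2a* ratios was not tested. *Runx2* had -0.96 in LacZ mice and 1.33 in HDAC4 wt mice, a difference of -2.29 between values of at most 1.88 FPKM. *Nr4a1* had 0.22 with HDAC4 wt and -0.29 with HDAC4 3SA, a difference of 0.51.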

How the results depend on the processing

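No paired analysis was possible because the tables hold 1 value per group, and leaving out a mouse was not run for the same reason. With no replicate values, a ratio was read as moved when it changed by 0.1 or more on the log2 scale. Of 72 ratios (8 genes in 9 comparisons), 72 moved by less with 0 FPKM added, 72 with centring on the median of loci of at least 5 FPKM, and 71 with 1 FPKM added. With 1 FPKM added, 1 gene instead of 2 passed the fold in HDAC4 wt against LacZ after saline, as *Hdac7* dropped out. At a threshold of 1, 0 of 8 genes passed in any comparison, *Mef2c* included, beside 2.05% to 11.4% of all loci. At 0.25, 4 passed in HDAC4 wt against LacZ after saline, 4 after CFA, 3 in HDAC4 3SA against LacZ after saline and 4 after CFA, beside 48.2%, 47.5%, 40% and 52.1% of all loci; 1 passed in HDAC4 3SA against HDAC4 wt after saline (*Hdac7*) and 1 after CFA (*Hdac4*), and 1 for CFA in HDAC4 3SA mice (*Hdac9*), beside 21.8%, 26.4% and 33.5% of loci. Summing all rows with a name is the same setting for these genes, which have 1 row each. The share of all loci past the fold was 7.16% to 28.3% over the comparisons, 15.3% to 36.8% with no minimum and 4.58% to 21.5% at 5 FPKM. Chosen after seeing the data, centring the ratios between vectors on the median of the 6 neuronal markers (-0.50, -0.46, -0.30 and -0.39 against LacZ, in the order HDAC4 wt saline and CFA, then HDAC4 3SA saline and CFA) gave 6, 5, 3 and 4 genes past the fold, all above, with *Hdac4*, *Hdac7* and *Mef2c* among them in all 4 comparisons, beside 54.7%, 47.8%, 27.3% and 40.7% of all loci above by the fold with the same centring. It turned *Hdac5* from -0.27 and -0.25 to 0.23 and 0.21 in HDAC4 wt, and *Hdac9* from below 0 in the 4 comparisons to values of 0.078 to 0.41. The cause was not tested.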
